A study of Homo sapiens with 6 samples.

Results

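The genes described here are the 36 nuclear genes of the aminoacyl-tRNA synthetases, taken by name from the 58174 genes measured in SiHa cells. They comprise 20 genes of cytosolic enzymes and 16 genes of mitochondrial enzymes, whose names end in 2. SiHa is an established line from a human cervical squamous cell carcinoma. The cells of the OV-BRCA1 group (3 samples) received the GV230-BRCA1 plasmid, and those of the negative control (NC) group (3 samples) received the GV230 plasmid without BRCA1. Both groups were transfected with Lipofectamine 3000 and harvested after 48 h, so exposure to the vector and the reagent was common to both. The study's methods describe the samples of a group as biological replicates, and mRNA was captured on beads before sequencing. Levels are in FPKM, the fragment count of a transcript scaled for its length and for the depth of the library, and are summed over the transcripts of each gene.

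Aminoacyl-tRNA synthetases join each amino acid to its tRNA, the step that sets the genetic code. The cytosolic enzymes serve the proteins made from nuclear genes, and a separate set, also encoded in the nucleus, is imported into mitochondria to serve the few proteins of the mitochondrial genome. The enzymes fall into class I and class II by the fold of the catalytic site, and several cytosolic ones are held together with scaffold proteins in the multisynthetase complex. WARS, the cytosolic tryptophanyl-tRNA synthetase, is known as an interferon-inducible gene, and a shorter form of its protein that lacks the first residues is secreted and acts on blood vessel growth. Many cytosolic synthetase genes are also known targets of the amino acid response, the programme that ATF4 drives when amino acids are short.

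The libraries held an estimated 14.28 to 19.62 M fragments, and samples correlated at 0.985 to 0.986 within the groups and at 0.951 to 0.955 between them (Pearson's r of log2 values over genes). BRCA1, the targeted gene, had 37.1 ± 3.18 FPKM in OV-BRCA1 cells and 18.9 ± 3.56 in the NC group (SD, n = 3; log2 fold change 0.95, limma adjusted p = 0.00373), and plasmid and endogenous transcripts cannot be told apart in these values. The epithelial list summed to 609 to 650 FPKM in OV-BRCA1 and 508 to 542 in NC samples, nearly all of it KRT8 and KRT18. EPCAM was at 2.11 to 7.65 FPKM (log2 fold change 1.12, limma adjusted p = 0.00142), CDH1 was below 1 FPKM in every sample, and KRT19 did not pass the filter on low values. The squamous list summed to 954 to 1132 and 1425 to 1443 FPKM, nearly all of it KRT17, which was downregulated (log2 fold change -0.48, limma adjusted p = 0.00263), and KRT5, KRT14 and TP63 did not pass the filter. The leukocyte marker PTPRC was listed at 0 in every sample, and the summed leukocyte list, nearly all of it CD14, was 6.78 to 9.10 FPKM in OV-BRCA1 cells and 18.0 to 20.5 in the NC group. The fibroblast list summed to 3.18 to 3.90 and 6.01 to 6.63 FPKM and the endothelial list to 0.761 to 1.45 and 0.629 to 0.788, and the part of these markers in the results was not tested. Transcripts of the mitochondrial genome took 16.1% ± 1.21 of all FPKM in OV-BRCA1 cells and 22.04% ± 1.10 in the NC group.

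Members were compared between the groups with limma's moderated test on log2(FPKM + 1), fitted over the 16321 genes with at least 0.5 FPKM in at least 3 samples, and were called upregulated or downregulated at a Benjamini-Hochberg adjusted p below 0.05. All 36 members passed the filter. The lowest was PARS2, with an estimated 68.5 to 103 fragments per sample. Of the members, 7 were upregulated, 6 were downregulated and 23 did not pass the test. These 13 calls are 36.1% of the members, beside 35.3% of all genes tested (16.4% higher and 18.9% lower), so by this sum the members were called about as often as all genes. The groups did not overlap in 20 members, 12 with OV-BRCA1 above and 8 with OV-BRCA1 below, beside 50.8% of all genes (23.4% above and 27.4% below). The median log2 fold change was 0.08 over the members and -0.04 over all genes. The share depended on how transcripts were combined. With FPKM multiplied by transcript length before summing, which gives fragments per M mapped fragments (FPM), 19 of the 36 members were called (52.8%, 11 higher and 8 lower) beside 42.6% of all genes (20.2% higher and 22.4% lower). With the most abundant transcript of each gene in place of the sum, 2 members were called, AARS and MARS2 (5.56%), beside 21.1% of all genes (10.8% higher and 10.3% lower). WARS was the only member that also passed the study's criterion for a DEG, an absolute log2 fold change above 1, which 3.99% of all genes met (2.89% higher and 1.1% lower).

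**Figure D1:**
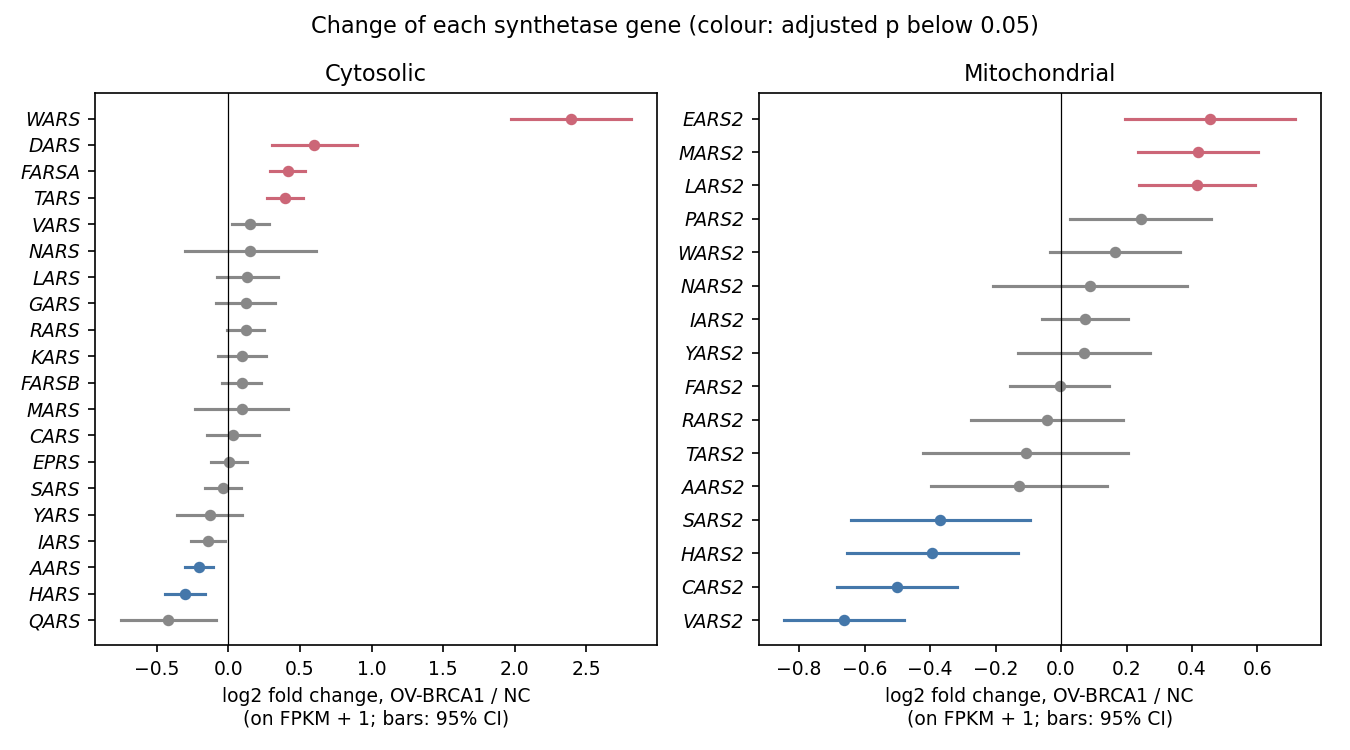
Log2 fold change of OV-BRCA1 over NC on the log2(FPKM + 1) scale for each of the 20 cytosolic (left) and 16 mitochondrial genes (right), with its 95% confidence interval as a bar, coloured where the limma adjusted p was below 0.05 (red higher, blue lower). WARS lies at 2.39, and every other member lies between -0.66 and 0.60. The panels have different scales.

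WARS (chr14:100333788-100376805 in hg38, minus strand) rose from the third highest level of the cytosolic members to the highest. It had 561, 446 and 345 FPKM in samples 1, 2 and 3 of the OV-BRCA1 group, while the corresponding NC values were 77.8, 80.8 and 92.1 FPKM. Every OV-BRCA1 sample stood far above every NC sample, and the spread was wider in the OV-BRCA1 group. The mean was 451 ± 108 against 83.6 ± 7.56 FPKM (SD, n = 3), a ratio of 5.40. The log2 fold change was 2.39 (SE 0.17, 95% confidence interval 1.97 to 2.81, limma adjusted p = 0.000224). With FPKM rescaled so that coding genes of the nucleus had one total in all samples, its log2 fold change was 2.35. In bulk RNA, a change in fewer cells and a smaller change in every cell cannot be told apart. By log2 fold change WARS ranked 81 among the 16321 genes tested. It took 8.40% ± 0.598 of the summed FPKM of the 20 cytosolic members in the NC group and 31.3% ± 4.91 in the OV-BRCA1 group. Its mitochondrial counterpart WARS2, which charges the mitochondrial tryptophan tRNA, did not pass the test (5.43, 4.95 and 5.45 against 4.36, 4.47 and 4.99 FPKM, log2 fold change 0.16, limma adjusted p = 0.168), and its groups overlapped.

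The promoters of WARS are shown because the gene is the interferon-inducible member and has 2 annotated start regions. Promoters were taken from RefSeq (GRCh38.p14), which matched 30 of the 36 members (DARS, LARS, VARS, YARS, AARS2 and VARS2 were not matched). Each was searched on both strands for the letters of the interferon-stimulated response element (ISRE, GAAA and GAAA with any 2 bases between them), of the gamma-activated site (GAS, TTCNNNGAA) and of the C/EBP-ATF response element (CARE, TGATGNAA) that the amino acid response uses. The downstream WARS promoter (chr14:100375298-100375597, minus strand) held 1 ISRE match, 55 bases before the start, and 1 GAS match, 142 bases before it. The upstream promoter (chr14:100376278-100376577, minus strand), with a start 980 bases away, held none of the 3 motifs. EARS2 (chr16, minus strand) was the only other member with an ISRE match, on the opposite strand. Each run below is 30 bases, 5′ to 3′ on the strand of the gene, with the match in capitals.
WARS, ISRE, chr14:100375383-100375412: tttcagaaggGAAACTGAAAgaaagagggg
WARS, GAS, chr14:100375470-100375499: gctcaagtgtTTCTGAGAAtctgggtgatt
EARS2, ISRE on the other strand, chr16:23557554-23557583: cctgccacgcTTTCGCTTTCccaagctgaa

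The matched members had 39 promoters in all. The ISRE letters occurred in 3 of these 39 (2 members) and in 3.57% of the 35116 RefSeq promoters of this length. The GAS letters occurred in 7 of the 39 (5 members, CARS, PARS2, TARS, WARS and WARS2) and in 7.66% of all promoters. A match of letters is a description of the sequence and not evidence of a bound site. The WARS matches also lie inside annotated exons of GENCODE release 29, the ISRE match in 16 WARS transcripts and the GAS match in 5.

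The 44 WARS transcripts in the files differed widely between samples of one group, while their sum varied less. Of the 17 transcripts that passed the filter, 1 was called, WARS-242, a short retained-intron transcript that had 2.65, 2.28 and 3.58 FPKM in OV-BRCA1 cells and 0.757, 1.04 and 0.441 FPKM in the NC group (log2 fold change 1.14, limma adjusted p = 0.0408). Leaving out any 1 sample ended this call. Among all transcripts tested, 5.47% were called, 2.85% higher and 2.63% lower. The most abundant one, the coding transcript WARS-201, had 293, 277 and 72.4 FPKM against 22.8, 9.22 and 46.5 FPKM. Its groups did not overlap, but OV-BRCA1 sample 3 was close to NC sample 3, and it did not pass the test (log2 fold change 3.01, SE 0.77, limma adjusted p = 0.0924). The short coding transcript WARS-229 had 167, 41.8 and 0.185 FPKM in the OV-BRCA1 samples, and WARS-216 had 12.5, 21.8 and 130 FPKM. In the third OV-BRCA1 sample the first of these nearly disappeared and the second was the highest, so the division of WARS fragments among transcripts was not steady within the group.

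Transcripts were then summed by the coding frame they carry. The long frame of WARS has 1413 coding bases (471 codons), and the short frame has 1290 (430 codons), so that the short form of the protein lacks 41 residues. The 3 short-frame transcripts summed to 313, 335 and 86.2 FPKM in OV-BRCA1 cells and to 30.7, 19.1 and 59.9 FPKM in the NC group. The 3 long-frame transcripts summed to 12.3, 20.4 and 100 FPKM and to 13.1, 13.6 and 3.19 FPKM. The short frame was above the long frame in every sample except OV-BRCA1 sample 3, and the long-frame groups overlapped. Because short transcripts weigh more in a sum of FPKM, WARS was also summed as FPM. On this scale WARS had 1022, 1010 and 650 FPM in OV-BRCA1 cells and 148, 126 and 191 in the NC group, a ratio of 5.77. Transcripts that start near the downstream promoter (within 600 bases) gave 829, 791 and 345 against 71.9, 46.9 and 132 FPM, and those that start near the upstream promoter gave 154, 194 and 196 against 53.1, 45.6 and 40.6. Both start regions were higher in every OV-BRCA1 sample than in any NC sample. The transcripts share most exons, and which start a fragment came from cannot be told apart for most of the gene.

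**Figure D2:**
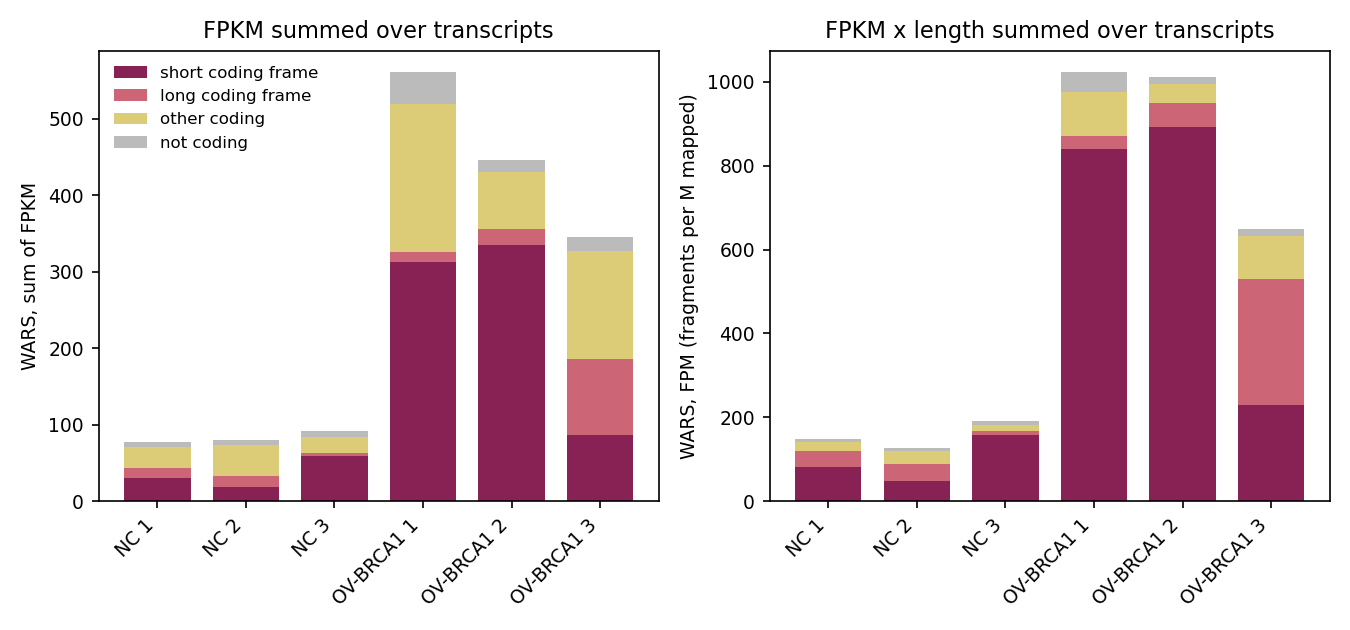
WARS in each of the 3 NC and 3 OV-BRCA1 samples as stacked bars, by the coding frame of the transcripts, as summed FPKM (left) and as FPM (right). The whole bars rise from 77.8 to 92.1 FPKM in NC to 345 to 561 FPKM in OV-BRCA1, while the part given to the short and the long frame differs between samples of the same group.

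Among the other 19 cytosolic members, 3 were upregulated and 2 downregulated, all by less than 1 on the log2 scale. These 5 calls are 26.3% of the 19, beside the same 35.3% of all genes. This order turned as FPM, where 13 of the 20 cytosolic members, WARS included, were called (65.0%), beside 42.6% of all genes. FARSA, the alpha subunit of phenylalanyl-tRNA synthetase, had 50.3, 46.2 and 48.0 FPKM in OV-BRCA1 cells and 36.2, 36.2 and 35.3 FPKM in the NC group. Its groups were well apart (log2 fold change 0.41, SE 0.05, limma adjusted p = 0.00177). Its partner FARSB, the beta subunit of the same enzyme and the lowest cytosolic member, had 13.5, 13.1 and 13.4 against 12.8, 12.3 and 12.2 FPKM. FARSB was also higher in all OV-BRCA1 samples but did not pass the test (log2 fold change 0.09, limma adjusted p = 0.244), and the difference between the subunits was not tested. TARS, which charges threonine tRNA, had 158, 165 and 164 against 130, 117 and 123 FPKM, without overlap (log2 fold change 0.39, SE 0.05, limma adjusted p = 0.00211), but its protein-coding transcripts alone did not pass the test (log2 fold change 0.23, limma adjusted p = 0.841).

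DARS, which charges aspartate tRNA and belongs to the multisynthetase complex, had 54.1, 51.5 and 54.1 FPKM in OV-BRCA1 cells and 42.6, 32.4 and 30.6 FPKM in the NC group. The groups were apart, with NC sample 1 nearest (log2 fold change 0.60, SE 0.12, limma adjusted p = 0.0118). Most of the difference lay in one retained-intron transcript, DARS-209, which had 22.7, 24.3 and 26.6 FPKM against 18.9, 0.953 and 0.153 FPKM and did not itself pass the test (limma adjusted p = 0.201). The coding transcript DARS-201 had 26.5, 23.1 and 22.6 against 18.4, 27.5 and 26.4 FPKM, and its groups overlapped (log2 fold change 0.02, limma adjusted p = 0.97). NC sample 1 thus resembled the OV-BRCA1 samples in the retained-intron transcript. As FPM, DARS had 86.3, 79.1 and 80.6 against 64.1, 68.8 and 65.4, a smaller rise (log2 fold change 0.31, limma adjusted p = 0.00458).

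AARS, the alanine enzyme, had 67.1, 65.3 and 66.5 FPKM in OV-BRCA1 cells and 75.3, 77.5 and 77.0 FPKM in the NC group. The spread within the groups was narrow, and the downregulation passed the test at a small size (log2 fold change -0.21, SE 0.04, limma adjusted p = 0.0107). HARS, the histidine enzyme, had 24.0, 22.04 and 23.7 against 30.04, 28.4 and 28.2 FPKM, also without overlap (log2 fold change -0.30, SE 0.06, limma adjusted p = 0.00983). Its protein-coding transcripts alone did not pass the test (log2 fold change -0.13, limma adjusted p = 0.272).

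**Figure D3:**
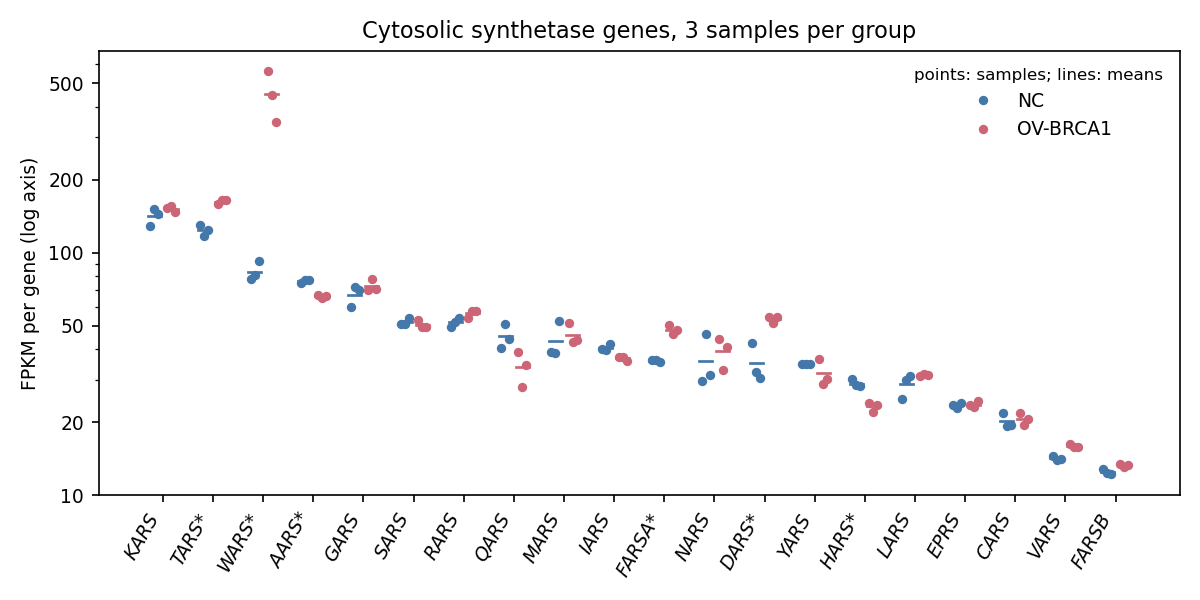
FPKM (log axis) of the 20 cytosolic genes in each sample, ordered by the NC mean, with points for the 3 samples per group and lines for the means; an asterisk marks a limma adjusted p below 0.05. KARS is the highest gene in the NC group with a mean of 142, and WARS moves from the third place to the first.

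The 14 cytosolic members that did not pass the test lay between -0.42 and 0.15 on the log2 scale. QARS, which charges glutamine tRNA, had the lowest value, with 38.9, 27.9 and 34.3 against 40.6, 50.8 and 44.2 FPKM (log2 fold change -0.42, SE 0.14, limma adjusted p = 0.0566). Its groups did not overlap, but it spread more than most members. IARS, the isoleucine enzyme (log2 fold change -0.14, limma adjusted p = 0.0639), and VARS, the valine enzyme (log2 fold change 0.15, limma adjusted p = 0.0663), were also near the threshold with groups that did not overlap. EPRS, which joins the glutamate and proline enzymes in a single chain, was at 23.5, 23.0 and 24.5 against 23.6, 23.0 and 24.1 FPKM, with a confidence interval of the log2 fold change from -0.12 to 0.13. KARS, the lysine enzyme that also serves mitochondria and the most abundant cytosolic member in the NC group, had 153, 155 and 147 against 129, 152 and 145 FPKM, and its groups overlapped (log2 fold change 0.10, limma adjusted p = 0.319). GARS, the glycine enzyme, which also serves both compartments, had a log2 fold change of 0.12 (limma adjusted p = 0.314). The intervals of NARS (-0.30 to 0.61) and MARS (-0.23 to 0.42) were wide enough to hold changes as large as most of those that passed the test. CARS, LARS, RARS, SARS and YARS lay between -0.13 and 0.13. As FPM, 7 of these 14 members were called, beside 42.6% of all genes (20.2% higher and 22.4% lower). GARS, KARS, RARS and VARS were higher and IARS, QARS and YARS lower, with log2 fold changes between -0.51 and 0.23.

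By structure, 1 of the 8 members of the multisynthetase complex was called (DARS) and 5 of the 12 other cytosolic members, with medians of 0.09 and 0.11 on the log2 scale. Among class I enzymes of the cytosol WARS alone was called, 1 of 10, beside 5 of 10 class II enzymes and 35.3% of all genes. EPRS was counted in class I, although the separate proline enzyme of mitochondria, PARS2, is of class II. As FPM the counts were 5 of 8 in the complex and 8 of 12 outside it, and 6 of 10 in class I and 7 of 10 in class II. They stand beside 42.6% of all genes called in that sum, and the unevenness was not seen there. These counts were not tested against each other. Summed over the cytosolic members, the level was 1428 ± 122 FPKM in OV-BRCA1 cells and 995 ± 28.6 in the NC group. Without WARS the sums were 977 ± 17.7 and 911 ± 23.6 FPKM, so most of the difference in the summed level was WARS.

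The mitochondrial members had a lower median level than the cytosolic ones in the NC group (10.5 against 38.2 FPKM), with overlapping ranges, and moved in both directions. Of the 16, 3 were upregulated, 4 were downregulated and 9 did not pass the test, with a median log2 fold change of 0.03. The 7 calls are 43.8% of these genes, beside 35.3% of all genes (16.4% higher and 18.9% lower). As FPM, 6 of the 16 were called (37.5%), beside 42.6% of all genes. With protein-coding transcripts alone, 4 were called (25.0%), beside 31.1%. Their summed level was 186 ± 3.34 FPKM in OV-BRCA1 cells and 202 ± 7.34 in the NC group. The most abundant was IARS2, the isoleucine enzyme, with 38.2, 38.1 and 40.2 against 36.6, 35.5 and 38.6 FPKM. The least abundant was PARS2, the proline enzyme, with 2.67, 2.65 and 2.43 against 1.83, 2.25 and 2.03 FPKM. IARS2 overlapped between the groups, and PARS2 was higher in each OV-BRCA1 sample but did not pass the test (log2 fold change 0.24, limma adjusted p = 0.0792).

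LARS2, the mitochondrial leucine enzyme, had 6.00, 5.79 and 5.38 FPKM in OV-BRCA1 cells and 4.002, 4.14 and 3.97 FPKM in the NC group (log2 fold change 0.42, SE 0.07, limma adjusted p = 0.00675). Its most abundant transcript went the other way (log2 fold change -0.14, limma adjusted p = 0.874). MARS2, the methionine enzyme, had 6.45, 6.86 and 7.03 against 5.11, 4.84 and 4.53 FPKM (log2 fold change 0.42, SE 0.08, limma adjusted p = 0.00752). EARS2, the glutamate enzyme, had 5.14, 5.77 and 6.04 against 4.41, 3.37 and 3.80 FPKM (log2 fold change 0.46, SE 0.11, limma adjusted p = 0.0194). All 3 were higher in each OV-BRCA1 sample than in any NC sample, and the gap was narrowest for EARS2. The call of EARS2 was lost without OV-BRCA1 sample 2 or 3 or without NC sample 2 or 3 (limma adjusted p = 0.0529 to 0.0621).

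VARS2, the mitochondrial valine enzyme, showed the largest fall of all members, with 8.54, 7.66 and 7.65 FPKM in OV-BRCA1 cells and 13.1, 13.9 and 12.4 FPKM in the NC group (log2 fold change -0.66, SE 0.08, limma adjusted p = 0.00129). The groups were far apart in this sum. Its protein-coding transcripts alone had a log2 fold change of -0.02 (limma adjusted p = 0.984), and VARS2 overlaps GTF2H4 on the same strand, so reads of the overlap cannot be told apart. CARS2, the cysteine enzyme, had 22.6, 20.9 and 21.1 against 28.8, 34.0 and 30.1 FPKM (log2 fold change -0.50, SE 0.08, limma adjusted p = 0.00383), with its groups well apart.

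HARS2, the mitochondrial histidine enzyme, had 9.36, 9.28 and 9.13 against 10.7, 12.6 and 14.4 FPKM (log2 fold change -0.39, SE 0.11, limma adjusted p = 0.0328). SARS2, the serine enzyme, had 13.9, 17.9 and 17.3 against 21.4, 19.5 and 23.2 FPKM (log2 fold change -0.37, SE 0.11, limma adjusted p = 0.0466). Neither gene overlapped between the groups, but HARS2 varied in the NC samples and SARS2 in the OV-BRCA1 samples. Leaving out any OV-BRCA1 sample, or NC sample 2 or 3, ended the call of HARS2 (limma adjusted p = 0.0689 to 0.0851), and leaving out any of the 6 samples ended that of SARS2 (limma adjusted p = 0.0537 to 0.129). Of the members that did not pass the test, AARS2, FARS2, NARS2, RARS2, TARS2, WARS2 and YARS2 overlapped between the groups and lay between -0.13 and 0.16 on the log2 scale.

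**Figure D4:**
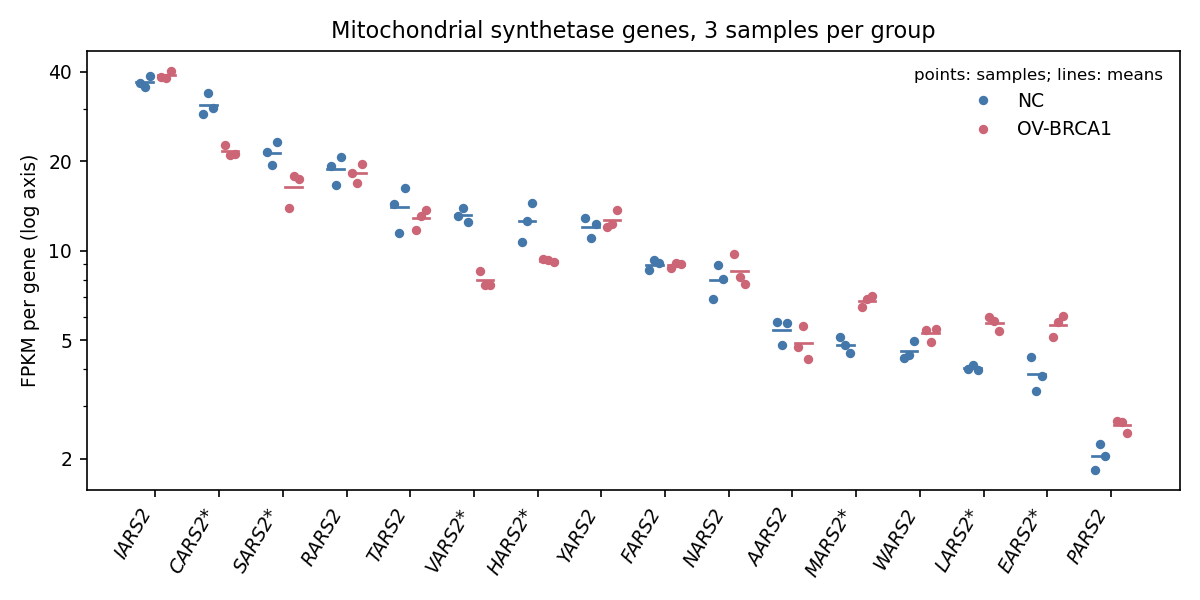
FPKM (log axis) of the 16 mitochondrial genes in each sample, ordered by the NC mean, with points for the 3 samples per group and lines for the means; an asterisk marks a limma adjusted p below 0.05. Means in the NC group run from 36.9 for IARS2 to 2.04 for PARS2, and the 7 called genes have groups that do not overlap.

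The members include 13 pairs of a cytosolic gene and a mitochondrial gene that share a name, such as HARS and HARS2. Phenylalanine (FARSA and FARSB with FARS2) and glutamate and proline (EPRS with EARS2 and PARS2) have no such one-to-one pair and were left out of the counts of pairs. The cytosolic gene had the higher level per length in 12 of these 13 pairs in the NC group, with a median ratio of 2.88. The exception was the cysteine pair, in which CARS was at 0.653 of CARS2. The widest was the tryptophan pair, in which WARS was at 18.2 times WARS2 in the NC group and at 85.5 times in the OV-BRCA1 group. The log2 fold changes had the same sign in 7 of the 13 pairs. Both genes were called in 1 pair, HARS and HARS2, which were both downregulated. These genes lie head to head on chromosome 5, and their annotations overlap by 437 bases on opposite strands. Their RefSeq promoters share 184 bases. The use of strand in the counting is not given in the sources used here, so fragments from the overlap of HARS and HARS2 cannot be told apart.

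Other genes of the pathway were taken from 6 lists, to be read beside 16.4% of all genes called higher and 18.9% called lower. Of the 3 scaffolds of the multisynthetase complex, 2 were upregulated, EEF1E1 (log2 fold change 0.61) and AIMP2 (0.24), and AIMP1 did not pass the test. None of the 4 genes that make mitochondrial glutaminyl-tRNA by amidation or formylate the initiator tRNA passed limma's test at an adjusted p below 0.05, nor at an unadjusted p below 0.05. Of the 3 deacylases, which clear wrongly charged tRNA, AARSD1 was downregulated (-0.28). Of the 6 elongation factors that take up charged tRNA and their exchange factors, EEF1B2 was downregulated (-0.16).

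The amino acid response list holds ATF4 and genes of the response that it drives, which many cytosolic synthetases share. Of its 16 genes, 6 were upregulated and 4 downregulated, with a median log2 fold change of 0.20, beside 16.4% and 18.9% of all genes. ATF4 was among the 6 (log2 fold change 0.53, limma adjusted p = 0.00506). The largest changes were ATF3, a transcription factor (-1.24), SLC7A11, the cystine transporter (1.00), DDIT3, a stress transcription factor (0.84), and TRIB3, a pseudokinase (0.75). The annotations of DDIT3 and MARS overlap on opposite strands, and the use of strand is not given. Fragments from that overlap cannot be told apart. The CARE letters, found in 3.62% of RefSeq promoters, were present in 8 of the 39 member promoters, 1 each in 8 members: AARS, CARS, GARS, IARS, MARS, NARS, TARS and YARS2. Of these 8, TARS was upregulated, AARS was downregulated and 6 did not pass the test, beside 35.3% of all genes called. Their median log2 fold change was 0.08. The match is shown for both called genes, with the letters on the other strand in each. In TARS it lies 2 bases after the start of the second promoter, inside exons of 4 annotated transcripts, and in AARS it lies 187 bases before the start and in no annotated exon of the gene.
TARS, CARE, chr5:33440956-33440985, plus strand: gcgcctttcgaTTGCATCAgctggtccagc
AARS, CARE, chr16:70289675-70289704, minus strand: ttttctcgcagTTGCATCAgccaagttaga

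The interferon gamma response list, chosen with earlier results of these data known, is given because WARS is known to answer to that cytokine. It was upregulated in 8 of 8 genes, beside 16.4% of all genes, with a median log2 fold change of 1.83. The largest were CXCL10, a chemokine (4.13), GBP1, a guanylate-binding protein (2.37), TAP1, the peptide transporter (2.18), and PSMB9, an immunoproteasome subunit (1.93). The WARS log2 fold change of 2.39 lay within the range of this list, from 0.53 for GBP2 to 4.13 for CXCL10. The other 35 members lay between -0.66 and 0.60, and DARS, at 0.60, was also above GBP2.

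How transcripts were summed bore on several calls. Taking protein-coding transcripts alone, 7 of the 13 called members passed the test again (WARS, FARSA, AARS, LARS2, MARS2, CARS2 and SARS2), and DARS, TARS, HARS, EARS2, HARS2 and VARS2 did not. LARS passed in addition, so that 8 of the 36 members (22.2%) were called in that sum, beside 31.1% of all genes (17.7% higher and 13.4% lower). For TARS the coding transcripts were unsteady within groups, with TARS-204 at 0.651, 147 and 0.0376 FPKM in the OV-BRCA1 samples, while the gene sum ran from 158 to 165. As FPM, 12 of the 13 passed again, with VARS2 the exception (log2 fold change -0.75, limma adjusted p = 0.11). The FPM of VARS2 leaves out 1 of its transcripts, which has no length in GENCODE release 29. As FPM, 7 members beyond the 13 also passed, all of them cytosolic. WARS passed under each of these sums.

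**Figure D5:**
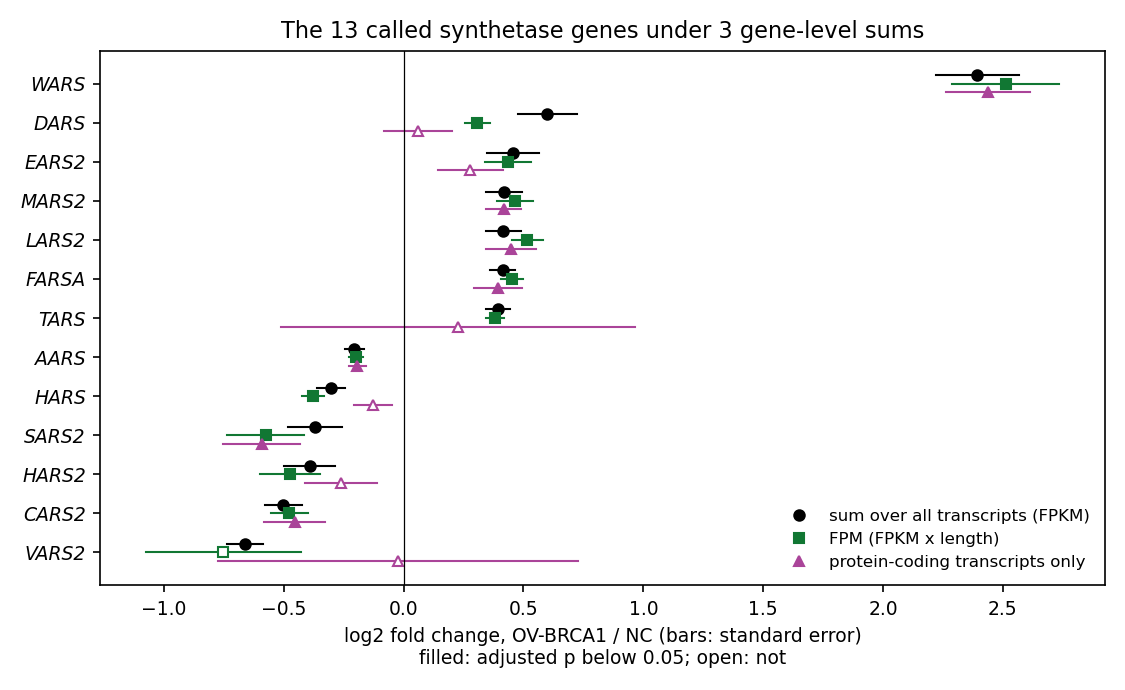
Log2 fold change of the 13 called members under the sum of FPKM over all transcripts (circles), FPM (squares) and protein-coding transcripts only (triangles), with standard errors as bars; filled symbols have a limma adjusted p below 0.05. WARS stays at 2.39, 2.51 and 2.44, while DARS moves from 0.60 to 0.31 and 0.06 and VARS2 from -0.66 to -0.75 (1 transcript without a known length left out) and -0.02.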

How the data were processed

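mRNA from 3 OV-BRCA1 and 3 NC samples of SiHa cells was measured 48 h after transfection, and groups and replicate numbers were taken from the labels. FastQC, HISAT2 and the genome build hg38 are named in the submitters' processing notes. The annotation, the quantification tool and the use of strand are not given in the sources used here. The deposited FPKM values, made by the authors for 199167 transcripts of 58174 genes, were summed per gene. GENCODE release 29 supplied symbols and positions. It listed 198868 of these transcripts and gave no symbol for 338 genes. Since no counts are among the deposited values, the authors' negative binomial test was not repeated.

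Genes with at least 0.5 FPKM in at least 3 samples (16321) were tested with limma (trend, not robust) on log2(FPKM + 1), with no covariate and Benjamini-Hochberg adjustment over all of them. With a pseudocount of 1, the fold changes of low genes are understated. The same test was run on transcripts. The members, the gene lists and the motifs were chosen with earlier results of these data known. All members are named, with values per sample for WARS, each member called, and the highest and lowest member of each compartment. Of each list, at most the 4 called genes with the largest changes are named, and in addition AIMP1, ATF4 and GBP2. Values per sample of WARS2, QARS and EPRS, of single transcripts and of the promoter sites were chosen after their values had been seen. Depth was estimated from the FPKM that 1 fragment is worth in single-transcript genes. The recovery of whole reads failed, as 33.8% to 38.4% of low values lay within 0.1 of a whole fragment, and the estimates cover counting error only.

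Promoter sequences came from RefSeq (GRCh38.p14), from 250 bases before to 50 bases after each start. One gene is not reported here. The limma fit was run first on simulated data. Alternatives were omitting the low-value filter, a pseudocount of 0.1, scaling by the median of ratios or to nuclear protein-coding genes, a replicate block, each sample left out in turn, no trend, the most abundant transcript, and the fold change criterion. FPM, the product of FPKM and transcript length, and protein-coding transcripts only were added after seeing the data. Software was limma 3.58.1 in R 4.3.3, and matplotlib 3.10.9, pandas 2.3.3 and numpy 2.4.6 in Python 3.11.15.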

Additional observations from a re-analysis of the deposited data

How the results depend on the processing

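Calls rest on 3 samples per group, and depth is an estimate, at 68.5 fragments in the lowest sample of PARS2 and 169 in that of EARS2. Of the 13 called members, AARS and MARS2 kept their call in all 15 alternatives other than the fold change criterion, and WARS kept it in 14. Over all 15, the WARS log2 fold change was 2.22 to 3.01 (2.22 to 2.57 with a sample left out). The exception for WARS was its most abundant transcript (3.01, limma adjusted p = 0.0533). The most abundant transcript of each gene gave 0 cytosolic calls higher and 1 lower, 1 mitochondrial call higher and 0 lower, medians of 0.0164 (cytosolic) and 0.0906 (mitochondrial), and 3291 genes called in place of 5764, and LARS2 reversed to -0.14. The fold change criterion left 1 cytosolic gene higher (WARS), 0 lower and 0 mitochondrial genes in either direction. FPM gave 8 cytosolic genes higher and 5 lower in place of 4 and 2. Protein-coding transcripts only gave 1 cytosolic gene lower, 2 mitochondrial genes lower in place of 4, a mitochondrial median of 0.0733 and 3694 genes called, of which 57.0% were higher in place of 46.4%. Scaling to nuclear protein-coding genes gave 4 cytosolic genes lower and medians of 0.0569 and -0.0029, and median-of-ratios scaling gave medians of 0.13 and 0.067 in place of 0.09 and 0.03. Without a filter, 2 mitochondrial genes were lower. With 1 sample left out, the cytosolic genes lower were 2 to 4 (4 without OV-BRCA1 replicate 1), the mitochondrial genes lower 2 to 3, the cytosolic median 0.0366 to 0.11 (0.0366 without NC replicate 1), the mitochondrial median -0.0133 to 0.0536 (below 0 only without NC replicate 1), and 0 WARS transcripts were called in place of 1. The cause of these shifts was not tested, beyond what each alternative leaves out.

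The deviations of same-numbered samples correlated at -0.02, 0.02 and 0.01. OV-BRCA1 samples 2 and 3 correlated best with their own number, and sample 1 did not. Correlations this small cannot show whether samples were handled in pairs. With the replicate block 4595 genes were called in place of 5764, 2 mitochondrial genes were lower in place of 4, and 0 WARS transcripts were called.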
